A study of Mus musculus with 167 samples.

Results

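The kappa light chain V gene transcripts are the rows of the RNA tables whose symbol is Igkv followed by a digit, each of them a variable (V) gene segment of the mouse immunoglobulin kappa locus. The rule found 103 such rows among the 24643 rows that every one of the 44 RNA tables held, and it used no expression value. In a RefSeq gene table of the build GRCm38.p6, 95 of the 103 rows were V segments and 8 were V segment pseudogenes. Of the 103 rows, 101 reached 1 TPM (TPM is a length-scaled share of a library's RNA) in at least 1 library, and Igkv1-131 and Igkv2-95-2 did not. A single row, Igkv1-88, stood at 1 TPM or more in all 44 libraries.

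A kappa light chain is made when the RAG recombinase joins 1 V segment to 1 of the Igkj segments that lie just before the constant region Igkc. This step normally follows heavy chain assembly, so it belongs to the pre-B cell, while pro-B cells still rearrange the heavy chain locus. Unrearranged V segments are also transcribed from their own promoters, which carry the octamer bound by Oct factors, and a rearranged segment is spliced to Igkc. The order number after the dash of a symbol counts V segments from the J side of the locus outwards, and the number before it names the V family. A level in these tables cannot separate unrearranged from rearranged transcripts, and near-identical segments of 1 family may share reads, so single members of a family are uncertain in that respect.

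All cells came from C57BL/6 mice. In the sorted Wapl experiment, pro-B and pre-B cells were sorted from bone marrow of Wapl(+/+) mice and of mice homozygous for ∆P1,2, with 2 libraries for each of the 4 groups. The ∆P1,2 allele lacks binding sites of the transcription factor Pax5 at Wapl, which encodes the factor that releases cohesin from DNA. A second Wapl experiment held pro-B cells expanded for 3 days in vitro, 2 Wapl(+/+) and 3 Wapl(∆P1,2/∆P1,2) libraries. The Pax5 experiment set 2 libraries of sorted Pax5(-/-) progenitors against 3 of sorted Pax5(+/+) pro-B cells. The Eed experiment held sorted pro-B cells, 5 libraries of Eed(F/F) Rag1-cre and 4 controls, of which 1 was Eed(F/F) without Cre and 3 were Eed(F/+) Rag1-cre. Rag1-cre expresses the recombinase from the Rag1 gene, and Eed encodes a subunit of the Polycomb repressive complex PRC2. Sorted immature B cells carried alleles of the heavy chain locus Igh in 3 experiments: 2 Igh(890-inv/+) against 2 Igh(+/+) libraries; 2 Igh(CBE/+) and 2 Igh(CBE-inv/+) against 3 Igh(+/+) libraries; and 2 Igh(V8-8/∆890) and 2 Igh(V8-8-inv/∆890) against 2 Igh(+/∆890) libraries, so that in the last experiment every cell, controls included, carried the ∆890 allele. The plots write dP1,2 and d890 for ∆P1,2 and ∆890.

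No label says that libraries of a group came from separate mice, so p-values measure the spread between these libraries, which may be technical. The tables give no read counts, and the depth of the libraries is unknown. Wapl itself stood at 10.4 and 10.999 TPM in the sorted Wapl(+/+) pro-B libraries and at 30.9 and 31.7 TPM in the Wapl(∆P1,2/∆P1,2) ones. In pre-B cells it stood at 9.32 and 12.9 TPM against 47.8 and 45.7 TPM. Pax5 fell from between 342 and 391 TPM in Pax5(+/+) cells to 43.0 and 39.1 TPM in Pax5(-/-) progenitors. Eed transcripts were not lower in Eed(F/F) Rag1-cre libraries (122.79 to 222 TPM) than in controls (58.4 to 121.51 TPM), and a whole-gene value checks nothing if the deleted part is small. The Y-linked transcript Eif2s3y stood at 5.75 to 28.9 TPM in the 4 sorted Wapl(+/+) libraries and at no more than 0.0668 TPM in the 4 sorted Wapl(∆P1,2/∆P1,2) libraries, so the sexes differ between the groups and sex and genotype cannot be told apart there. In the cultured experiment it was 0.638 and 0.280 TPM in the Wapl(+/+) libraries and 72.3, 71.4 and 0.194 TPM in the Wapl(∆P1,2/∆P1,2) ones.

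The annotation of the genome build NCBI37/mm9 (GENCODE vM1) placed 100 of the 103 rows, all on chromosome 6, and gave no position for Igkv3-5, Igkv13-87 and Igkv2-95-2. From Igkv2-137 at the far end to Igkv3-1 next to the J segments the rows spanned 3148.541 kb, chr6:67505630-70654171, and Igkc lay beyond them on the plus strand at chr6:70676429-70676751. Of the placed rows, 38 had the strand of Igkc, and 62 had the opposite strand, from which a V segment joins by inversion. A recombination signal of heptamer CACAGTG, a spacer of 12 bases and nonamer ACAAAAACC was looked for at the 3′ end of each segment. The heptamer matched at every base in 85 of the 100 rows, and heptamer and nonamer together in 32. All 8 placed rows of the Igkv3 family, which lies nearest to the J segments, matched at every base. The signals below, 5′ to 3′ on the strand of the segment with heptamer and nonamer in capitals, are those of Igkv3-7, of the 2 segments highest in pre-B cells (Igkv1-135 and Igkv19-93), and of segments that stood out in Pax5(-/-) progenitors.
Igkv3-7 (chr6:70558031-70558058, plus strand): CACAGTGctccagggctgaACAAAAACC
Igkv1-135 (chr6:67560503-67560530, plus strand): CACAGTGattcagacccgaACAAAAACT
Igkv19-93 (chr6:68686263-68686290, minus strand): CACAGTGatacaaatcataACAAAAACC
Igkv9-124 (chr6:67892040-67892067, minus strand): CACAGTGatacaaattataACATAAACC
Igkv4-63 (chr6:69327910-69327937, minus strand): CACAGTGatacagactggaAAAAAACCT
Igkv1-88 (chr6:68812231-68812258, minus strand): CACAGTGatttataccccaACAAAAACT
The 28 bases printed for Igkv3-7 were the same, base for base, in 7 Igkv3 rows (Igkv3-12, Igkv3-10, Igkv3-7, Igkv3-4, Igkv3-3, Igkv3-2 and Igkv3-1).

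The octamer ATTTGCAT, searched on both strands from 250 bases before to 50 bases after the annotated start, was present at 60 of 100 placed Igkv rows (60.0%) and at 386 of 22380 protein-coding genes (1.72%). Where the annotation lacks the leader exon, as for Igkv3-7, this window lies inside the segment, and a missing match says only that the letters are not in the window. The 48 bases around the octamer, in capitals, are given for a near and a far segment, both on the plus strand of NCBI37/mm9.
Igkv3-12 (chr6:70468132-70468179): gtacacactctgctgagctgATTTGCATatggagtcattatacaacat
Igkv1-135 (chr6:67559613-67559660): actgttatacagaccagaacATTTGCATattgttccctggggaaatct

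Summed over all 103 rows, kappa V transcripts stood at 97.3 to 103 TPM in the sorted pro-B libraries of the Wapl experiment and at 1526 to 2179 TPM in its pre-B libraries, and they lay between 6062 and 12284 TPM in immature B cells. The 2 Wapl(+/+) pro-B libraries held 99.8 and 99.4 TPM, and the 2 Wapl(+/+) pre-B libraries held 1526 and 2179 TPM, an 18.6-fold difference of the means. Igkc moved with them, from 257 and 315 TPM to 5052 and 6443 TPM, a 20.1-fold difference. The 17 immature B libraries had an Igkc level between 14681 and 27350 TPM, with a median of 19269 TPM. Pre-B and immature B cells came from experiments whose tables were made separately, so stage and experiment cannot be told apart between them, and no test was made. In bulk RNA, fewer cells that express a gene and less RNA per cell cannot be told apart either.

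The number of V rows seen grew with the stage as well. At 1 TPM or more stood 21 and 28 rows in the Wapl(+/+) pro-B libraries, 93 and 97 in the pre-B libraries, and 96 to 100 in immature B cells. In both Wapl(+/+) pro-B libraries 16 rows reached that level, and in both Wapl(+/+) pre-B libraries 93 did. The 10 highest rows made up 61.6% and 52.9% of the sum in Wapl(+/+) pro-B cells, 37.3% and 37.8% in pre-B cells and 36.1% to 47.4% in immature B cells, so the pre-B and immature sums were spread over more segments. The level of Igkc over the V sum changed much less than either, from 2.57 and 3.17 in pro-B cells to 3.31 and 2.96 in pre-B cells and a median of 2.38 in immature B cells.

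**Figure D1:**
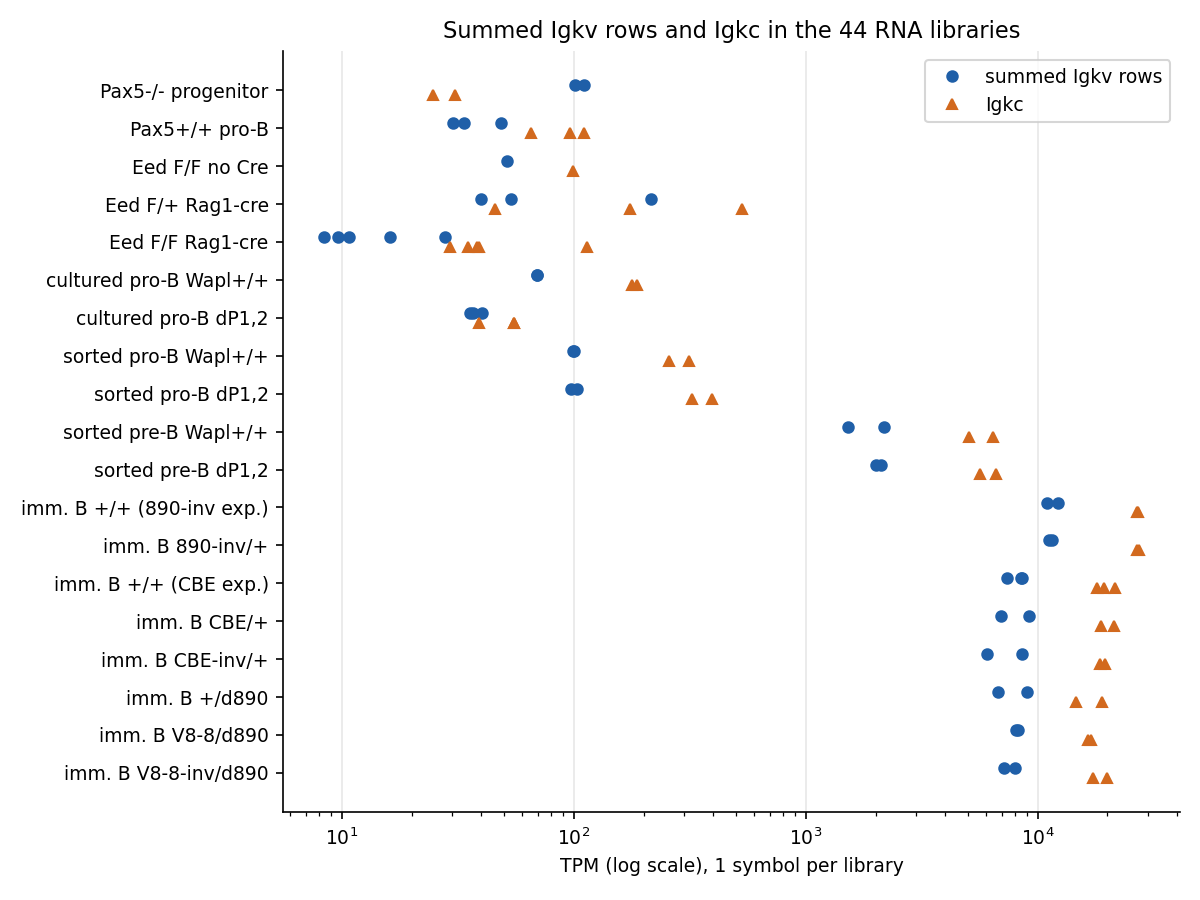
Summed TPM of the 103 Igkv rows and TPM of Igkc on a log axis, 1 symbol per library, for each of the groups. Immature B libraries lie between 6062 and 12284 TPM for the Igkv sum, pre-B libraries between 1526 and 2179 TPM, and pro-B libraries and progenitors at no more than 215 TPM; Igkc lies above the Igkv sum in all groups but the Pax5(-/-) progenitors.

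Every kappa segment that could be tested was higher in Wapl(+/+) pre-B than in Wapl(+/+) pro-B cells by fitted value. In the limma fit on log2(TPM + 1), 95 of 98 tested rows passed an adjusted p of 0.05 (Benjamini-Hochberg over 12465 genes), all of them higher in pre-B cells; over all genes tested, 57.7% passed in either direction and 23.8% were higher. The groups did not overlap for 96 of the 98 rows, but the share of all genes tested without overlap was not counted. The median difference of the rows was 2.99 on the log2(TPM + 1) scale, against -0.08 over all genes tested. Of the 98 rows, 64 reached 1 TPM only in the pre-B libraries, and such rows entered the test through the group where they were high; 33 of the 95 rows that passed had reached 1 TPM in both groups. The rows that did not pass were Igkv4-90, Igkv7-33 and Igkv8-26, all below 3 TPM in pre-B cells.

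Igkv8-16, a segment near the J side, stood at 1.23 and 1.30 TPM in pro-B cells and at 52.6 and 79.5 TPM in pre-B cells. The libraries of the 2 stages lay far apart, and the difference was 4.86 ± 0.22 (SE) on the log2 scale (adjusted p = 1.77e-06, limma). Igkv1-135, the row highest in pre-B cells, lies at the far end of the locus and went from 4.01 and 4.86 TPM to 102 and 165 TPM (difference 4.59 ± 0.23, adjusted p = 2.46e-06, limma). Igkv2-137, the segment farthest from the J segments, went from 2.16 and 2.27 TPM to a mean of 80.4 ± 27.7 TPM (SD, n = 2), its lower pre-B library standing at 60.8 TPM.

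Igkv3-1, nearest to the J segments, was listed at 0 in both pro-B libraries and stood at 7.93 and 11.8 TPM in pre-B cells. So the increase covered both ends of the locus. Igkv1-88 changed least among the 10 rows highest in pre-B cells: it was the highest row of both Wapl(+/+) pro-B libraries, at 17.3 and 17.2 TPM, and stood at 38.1 and 56.0 TPM in pre-B cells (difference 1.37 ± 0.17, adjusted p = 2.6e-04, limma). The 10 rows highest in Wapl(+/+) pre-B cells were, in falling order of the mean, Igkv1-135, Igkv19-93, Igkv2-137, Igkv8-16, Igkv1-117, Igkv3-2, Igkv1-88, Igkv1-110, Igkv5-39 and Igkv3-7. In Igh(+/+) immature B cells, Igkv14-126, Igkv19-93, Igkv1-117, Igkv1-135 and Igkv1-110 were the 5 highest.

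The other parts of the light chain system rose alongside. Igkc was higher in Wapl(+/+) pre-B cells by 4.32 ± 0.16 on the log2 scale (adjusted p = 7.43e-07, limma), and all 5 Igkj rows and all 10 lambda light chain rows passed the test in the same direction. Igkj1 stood at 12.4 to 14.7 TPM in pro-B cells and at 207.5 to 258.9 TPM in pre-B cells. Of 23 genes known to act on light chain activation or recombination, 17 were higher and 3 (Rag2, Ebf1 and Blnk) lower. Irf4, a transcription factor that binds the kappa enhancers, was at 109.0 to 110.7 TPM in pro-B cells and at 376.7 to 383.8 TPM in pre-B cells. Brwd1, a chromatin reader that opens the kappa locus, went from between 2.06 and 2.16 TPM to between 19.5 and 24.2 TPM. Most stage markers went with the labels, but not all. Of 7 pro-B markers, 5 (Kit, Igll1, Vpreb1, Vpreb2 and Dntt) were lower in pre-B cells and Il7r was higher. Of 4 pre-B markers, Il2ra, Cd2 and Irf4 were higher and Blnk was lower. Dntt is the pro-B polymerase that adds bases at heavy chain junctions. It stood at 2218 to 2268 TPM in pro-B cells and at 4.73 to 5.36 TPM in pre-B cells.

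**Figure D2:**
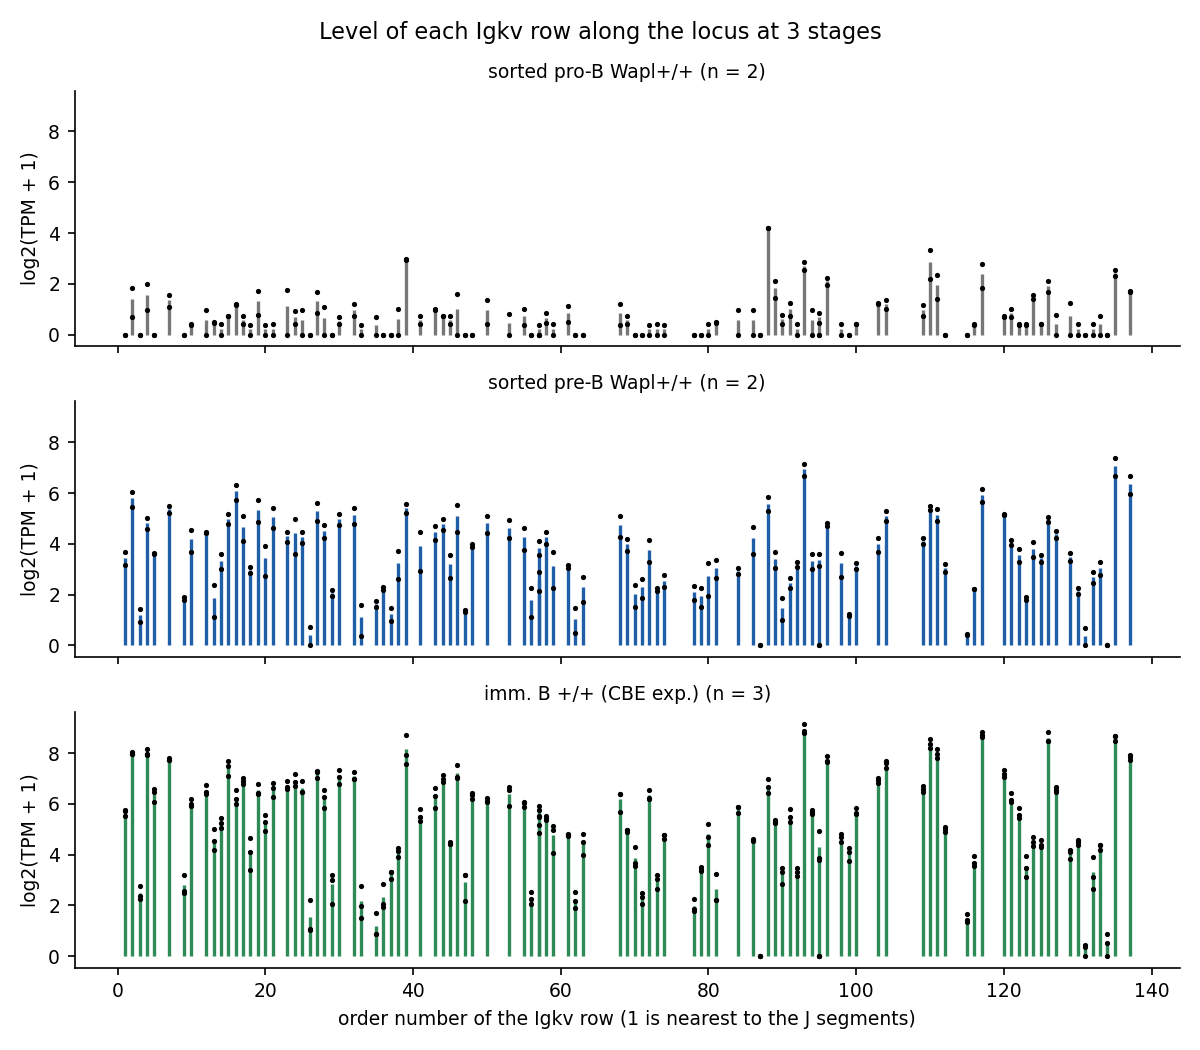
Mean log2(TPM + 1) of each Igkv row against its order number, where 1 is nearest to the J segments, in Wapl(+/+) pro-B, Wapl(+/+) pre-B and Igh(+/+) immature B cells. Pro-B cells show few segments above the floor, with Igkv1-88 highest, while pre-B and immature B cells show segments from Igkv3-1 to Igkv2-137.

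By position, segments with order numbers 1 to 45 gave 22.8% and 31.6% of the V sum in Wapl(+/+) pro-B cells and 37.1% and 40.1% in pre-B cells. Those numbered 46 to 90 gave 29.1% and 27.8% in pro-B cells and 17.0% and 20.1% in pre-B cells. The immature B libraries drew 30.4% to 41.6% from numbers 1 to 45, 12.0% to 18.4% from the middle and 42.1% to 56.7% from 91 upwards. Igkv1-88 alone gave 17.3% of the V sum in each Wapl(+/+) pro-B library and 2.50% and 2.57% in the pre-B libraries. With that row left out of the sum, a choice made after seeing the data, the middle gave 14.3% and 12.7% in Wapl(+/+) pro-B cells, 14.8% and 17.9% in pre-B cells and 10.7% to 17.4% in immature B cells, so the direction between pro-B and pre-B cells turned.

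**Figure D3:**
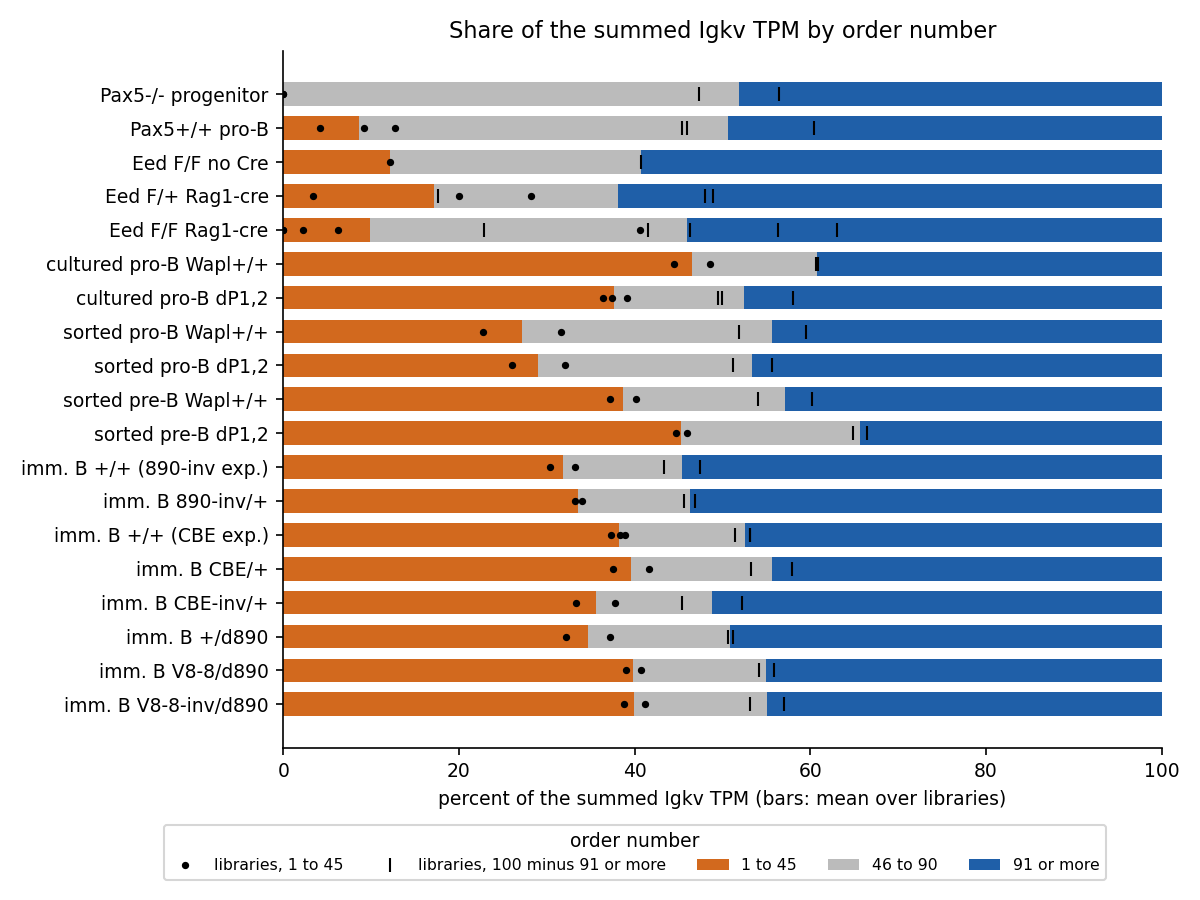
Percent of the summed Igkv TPM by order number, bars giving the mean over the libraries of a group, dots each library's part from numbers 1 to 45, and ticks the edge between the middle and the far part in each library. In Pax5(-/-) progenitors the part with order numbers 1 to 45 is 0, and in Wapl(∆P1,2/∆P1,2) pre-B cells it is 44.7% and 45.9% in the 2 libraries, against 37.1% and 40.1% in Wapl(+/+) pre-B cells.

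In sorted pro-B cells that keep Wapl high, the V sum was the same size as in controls. The sum was 97.3 and 103 TPM in Wapl(∆P1,2/∆P1,2) libraries against 99.8 and 99.4 TPM in Wapl(+/+) libraries, and the ranges overlap. Igkv1-88, the highest row of the Wapl(+/+) libraries, gave 17.3% of the sum in each of them. It gave less in the Wapl(∆P1,2/∆P1,2) libraries, 10.6% and 11.8%, but did not pass the test below. Igkc was 324 and 396 TPM against 257 and 315 TPM, which did not pass the test (difference 0.33 ± 0.16, adjusted p = 0.205, limma). Of 98 rows tested, 10 (10.2%) were higher and 0 lower at an adjusted p of 0.05 in the limma fit. Over all genes tested, 17.3% passed in either direction and 7.65% were higher. The count is thus near that background, and the median difference of the 98 rows was -0.001. At an unadjusted p under 0.05, 12 rows were higher and 8 lower, where 32.1% of all genes tested lay under it. With a pseudocount of 0.1 in place of 1 the test called 11 higher and 7 lower, where it called 15.7% of all genes tested. Of the 10 rows, 8 reached 1 TPM only in the Wapl(∆P1,2/∆P1,2) libraries, and such rows entered the test through the group where they were high. The count was 5 without the first Wapl(+/+) or the second Wapl(∆P1,2/∆P1,2) library.

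Igkv19-93 had the highest level of the 10, at 6.16 and 4.77 TPM in Wapl(+/+) and 13.8 and 16.0 TPM in Wapl(∆P1,2/∆P1,2) pro-B cells. Both mutant libraries lay above both controls, by 1.30 ± 0.17 on the log2 scale (adjusted p = 0.0023, limma). Igkv3-7 stood at 1.12 and 1.96 TPM against 3.32 and 3.69 TPM (difference 0.84 ± 0.17, adjusted p = 0.0136, limma). Igkv3-10 stood at 0.313 and 0.329 TPM against 2.79 and 2.06 TPM (difference 1.37 ± 0.27, adjusted p = 0.0122, limma).

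Igkv3-5 was listed at 0 in both controls and stood at 0.921 and 1.36 TPM in the mutants, and Igkv3-12 stood at 0 and 0.980 TPM against 1.54 and 3.41 TPM; both passed the test. Thus 4 of the 9 tested Igkv3 rows, the family at the J end, were among the 10. The remaining rows were Igkv10-95, Igkv4-92, Igkv5-48, Igkv8-30 and Igkv6-15, all under 4 TPM in every sorted pro-B library. The Igkv3 rows summed to 2.99 and 8.82 TPM in Wapl(+/+) and 11.9 and 15.6 TPM in Wapl(∆P1,2/∆P1,2) pro-B cells. All other V rows summed to 96.9 and 90.5 TPM against 85.4 and 87.2 TPM. This split by family was not planned, and the Igkv3 sum includes the rows that passed. Of the 23 activation genes, 12 were higher, among them Irf4 at 199.9 to 246.4 TPM against 109.0 to 110.7 TPM, and Brwd1 was lower at 0.599 to 0.628 TPM against 2.06 to 2.16 TPM.

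In pre-B cells with high Wapl, the V sum and Igkc were again of the size of the controls. The sum was 2019 and 2116 TPM in Wapl(∆P1,2/∆P1,2) libraries against 1526 and 2179 TPM, with overlap, and Igkc was 6599 and 5667 TPM against 5052 and 6443 TPM (difference 0.10 ± 0.16, adjusted p = 0.844, limma). Of 98 rows tested, Igkv3-7 and Igkv3-5 were higher and Igkv6-29 was lower, which is 3.06% of the rows, where 3.02% of all genes tested passed in either direction. The count is near that background, and with a pseudocount of 0.1 the test called 1 row, Igkv3-7.

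Igkv3-7 stood at 36.6 and 43.5 TPM in Wapl(+/+) pre-B cells and at 88.0 and 95.04 TPM in Wapl(∆P1,2/∆P1,2) pre-B cells. Its groups lay well apart, with a difference of 1.18 ± 0.17 (adjusted p = 0.0091, limma). Igkv3-5 stood at 11.3 and 11.5 TPM against 21.0 and 28.2 TPM (difference 1.03 ± 0.17, adjusted p = 0.0198, limma). Igkv6-29, a segment of low level, stood at 2.87 and 3.53 TPM against 1.37 and 0.818 TPM (difference -1.01 ± 0.19, adjusted p = 0.0306, limma).

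With a library left out, 1 arm holds a single library. Without the second Wapl(∆P1,2/∆P1,2) library 0 rows passed, and without the first Wapl(+/+) library 1 row passed. The difference of Igkv3-7 was 1.06, 1.30 and 1.12 (adjusted p = 0.0993, 0.0540 and 0.105, limma) without the first Wapl(+/+), the second Wapl(+/+) and the second Wapl(∆P1,2/∆P1,2) library, so the call was lost while the difference stayed near 1.18. That of Igkv3-5 was 1.02, 1.05 and 0.83 (adjusted p = 0.145, 0.150 and 0.135, limma) without the same libraries.

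The other Igkv3 rows did not pass. Igkv3-12 stood at 20.4 and 21.3 TPM against 48.0 and 54.9 TPM (difference 1.26 ± 0.34, adjusted p = 0.119, limma), so the groups did not overlap though the test was missed. Igkv3-10 stood at 11.7 and 22.5 TPM against 31.5 and 36.0 TPM (adjusted p = 0.110, limma), and Igkv3-4 at 23.2 and 31.5 TPM against 43.1 and 53.3 TPM (adjusted p = 0.272, limma). The whole family summed to 158 and 212 TPM in Wapl(+/+) and to 313 and 352 TPM in Wapl(∆P1,2/∆P1,2) pre-B cells, a 1.80-fold difference of the means. All other V rows summed to 1368 and 1967 TPM against 1706 and 1763 TPM, a 1.04-fold difference. The median difference was 0.80 over the 9 Igkv3 rows and 0.13 over the other 89 tested rows, beside -0.01 over all genes tested. The split by Igkv3 family was not planned, and its sums and medians include the rows that passed. They are therefore no separate support for those rows, and no other family was set apart.

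Along the locus, the median difference in pre-B cells was 0.26 for order numbers 1 to 45, where 30 of 37 rows were above 0, and 0.29 for 46 to 90, where 26 of 30 were. From 91 upwards it was -0.10, with 10 of 31 rows above 0. In immature B cells, the V8-8 and V8-8-inv comparisons share their controls and called 0 rows. They also had a higher median for numbers 1 to 45 (0.34 with 33 of 36 rows above 0, and 0.25 with 26 of 36) than from 91 upwards (-0.05 and -0.13). The 890-inv (0.04 against -0.16) and CBE (0.10 against -0.04) comparisons had the same direction, while CBE-inv went the other way (-0.28 against -0.15). The medians of the 9 Igkv3 rows were 0.35 for V8-8, 0.49 for V8-8-inv, 0.17 for 890-inv, 0.02 for CBE and -0.34 for CBE-inv. In pre-B cells the median over all 98 rows, 0.16, moved with the Wapl(+/+) library left out. It was -0.08 without the first, which had the lower V sum, and 0.45 without the second. In the far part Igkv19-93 stood at 102 and 142 TPM in Wapl(+/+) and 113 and 120 TPM in Wapl(∆P1,2/∆P1,2) pre-B cells, and Igkv1-135 at 102 and 165 TPM against 115 and 114 TPM, with overlap in both. Igkv4-92, at 7.49 and 8.65 TPM against 20.9 and 17.6 TPM, went the other way in that region but missed the threshold (adjusted p = 0.0627, limma).

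The differences by genotype were also compared between the stages. The test of that difference passed for 1 of 98 rows, Igkv19-93, where 3.35% of all genes tested passed; with no filter on low values 0 Igkv rows passed, and with a pseudocount of 0.1 it was 5. Its genotype difference was 1.35 ± 0.24 lower in pre-B than in pro-B cells on the log2 scale (adjusted p = 0.0284, limma), and it no longer passed without either Wapl(+/+) pro-B library, the first Wapl(∆P1,2/∆P1,2) pro-B library or either Wapl(∆P1,2/∆P1,2) pre-B library. For Igkv3-7 the genotype difference was thus seen at both stages, at 0.84 in pro-B and 1.18 in pre-B cells.

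Markers of the earlier stage moved with the pre-B comparison. The 7 pro-B markers summed to 477 and 531 TPM in Wapl(+/+) and 901 and 990 TPM in Wapl(∆P1,2/∆P1,2) pre-B libraries, and 5 of them (Kit, Igll1, Vpreb1, Vpreb2 and Dntt) were higher, none of the 7 being at 0. Igll1, a surrogate light chain part, stood at 35.1 to 42.5 TPM against 211.7 to 266.8 TPM. Of 9 immature and mature B markers, which summed to 2034 and 2073 TPM against 1329 and 1643 TPM, 8 could be tested and H2-Aa and H2-Ab1 were lower. Of the 23 activation genes, Brwd1 alone passed, at 19.5 to 24.2 TPM against 12.7 to 13.9 TPM. Stage markers differed in the pro-B comparison too. Of 7 pro-B markers, Kit and Il7r were higher and Cd93 and Dntt lower in Wapl(∆P1,2/∆P1,2) pro-B cells. Of 4 pre-B markers, Il2ra, Irf4 and Blnk were higher and Cd2 was lower. Of 8 immature and mature B markers tested, 5 (Cd40, Cd22, H2-Aa, Cd74 and Ms4a1) were lower and 0 higher. The part of these changes, and of sex, in the Igkv differences was not tested at either stage.

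**Figure D4:**
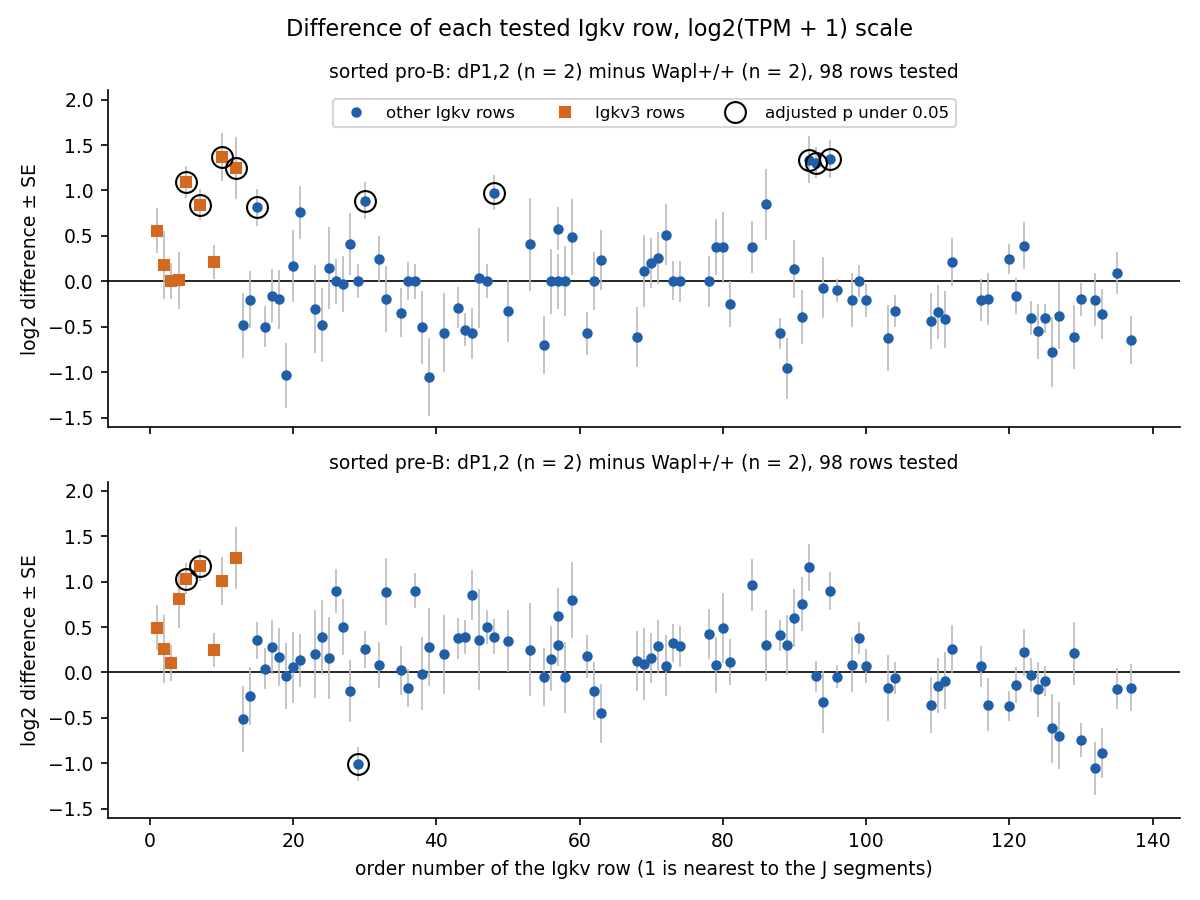
Difference of each tested Igkv row on the log2(TPM + 1) scale, with its SE, between Wapl(∆P1,2/∆P1,2) and Wapl(+/+) libraries (2 against 2) in pro-B and pre-B cells, against order number. Rings mark rows with an adjusted p under 0.05: 10 in pro-B cells, and Igkv3-7, Igkv3-5 and Igkv6-29 in pre-B cells.

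After 3 days in vitro the direction was another one: kappa transcripts were lower in Wapl(∆P1,2/∆P1,2) than in Wapl(+/+) pro-B cells. The V sum was 69.6 and 69.4 TPM in Wapl(+/+) and 35.9, 36.8 and 40.3 TPM in Wapl(∆P1,2/∆P1,2) cultures. Igkc stood at 187 and 178 TPM against 39.1, 55.1 and 55.5 TPM, with every mutant library below both controls (difference -1.87 ± 0.17, adjusted p = 4.76e-04, limma). Of 19 Igkv rows tested, 12 were lower and 0 higher, where 21.7% of all genes tested passed in either direction and 18.5% were lower. Of the 12, 10 reached 1 TPM only in the Wapl(+/+) libraries, and such rows had to be lower to enter. The count was 4 without the first Wapl(+/+) library. The median over all genes tested was itself -0.18, and with a scaling that sets it near 0 the test called 10 rows lower and 2 higher, and 26.9% of all genes tested. At an unadjusted p under 0.05, 12 rows were lower and 1 higher, where 37.2% of all genes tested lay under it.

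Igkv3-7 was among the lower rows, at 5.28 and 4.96 TPM in Wapl(+/+) and at 2.19, 2.36 and 3.44 TPM in Wapl(∆P1,2/∆P1,2) cultures (difference -0.76 ± 0.20, adjusted p = 0.0297, limma). The groups did not overlap, but the call was lost without either Wapl(+/+) library or the second Wapl(∆P1,2/∆P1,2) library (difference between -0.79 and -0.70, adjusted p between 0.0944 and 0.186, limma). Igkv3-2 missed the test in the other direction, at 3.14 and 2.99 TPM against 4.56, 4.41 and 5.72 TPM (adjusted p = 0.0650, limma). Igkv14-111, the highest row of the cultures, stood at 5.75 and 7.01 TPM against 10.02, 7.81 and 6.95 TPM, with overlap.

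All 9 lambda light chain rows that could be tested were lower in the Wapl(∆P1,2/∆P1,2) cultures. Their V segments Iglv1, Iglv2 and Iglv3 summed to 20.8 and 17.8 TPM in Wapl(+/+) and to 3.55, 2.87 and 2.94 TPM in Wapl(∆P1,2/∆P1,2) cultures. Igkj1, Igkj3 and Igkj5 were lower as well. Irf4 went the other way, at 33.6 to 38.7 TPM in Wapl(+/+) and 62.1 to 84.6 TPM in Wapl(∆P1,2/∆P1,2) cultures. The sorted and the cultured tables were made separately, so no test was made between them.

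In Pax5(-/-) progenitors a small set of V segments in the middle and far parts of the locus was higher, while Igkc was lower. The V sum was 48.4, 30.2 and 33.5 TPM in Pax5(+/+) pro-B cells and 101 and 111 TPM in Pax5(-/-) progenitors. Igkc stood at 110, 65.4 and 96.2 TPM in Pax5(+/+) and at 30.7 and 24.6 TPM in Pax5(-/-) cells (difference -1.65 ± 0.22, adjusted p = 0.00125, limma). The level of Igkc over the V sum was therefore 0.305 and 0.223 in the progenitors, against 2.28, 2.16 and 2.87 in the controls. Of 15 rows tested, 9 were higher and 2 lower; over all genes tested 36.9% passed, 15.5% being higher and 21.4% lower. Of the 9, 6 reached 1 TPM only in the progenitors and entered the test through them.

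Igkv9-124, a far segment whose signal is printed above, stood at 0.882, 0 and 0.426 TPM in Pax5(+/+) and at 16.0 and 25.4 TPM in Pax5(-/-) cells. Both progenitor libraries were far above all controls (difference 3.93 ± 0.32, adjusted p = 1.22e-04, limma). Igkv4-63 was listed at 0 in all 3 controls and stood at 6.21 and 5.45 TPM in the progenitors. Igkv9-120 stood at 0, 0.352 and 0 TPM against 5.87 and 4.64 TPM (difference 2.49 ± 0.24, adjusted p = 2.54e-04, limma).

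Igkv1-88, already the highest row of the controls, stood at 14.0, 7.20 and 14.2 TPM against 34.8 and 32.8 TPM (difference 1.498 ± 0.27, adjusted p = 0.0050, limma). Igkv2-109 stood at 1.39, 1.36 and 0.672 TPM against 7.32 and 8.11 TPM (difference 2.04 ± 0.23, limma), and Igkv12-89 at 1.89, 1.48 and 2.56 TPM against 6.19 and 4.16 TPM (difference 1.05 ± 0.25, adjusted p = 0.0140, limma). In these 3 rows as well the groups did not overlap. The calls of Igkv1-88 and Igkv12-89 were lost without either progenitor library, which leaves 1 in that arm. The difference of Igkv1-88 was then 1.46 and 1.54 (adjusted p = 0.0804 and 0.0824, limma), and that of Igkv12-89 was 0.81 and 1.29 (adjusted p = 0.148 and 0.0625, limma).

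The lower rows were Igkv1-135, at 1.40, 2.06 and 0.676 TPM against 0 and 0.453 TPM, and Igkv1-110, at 0.353, 1.04 and 1.02 TPM against 0 in both progenitor libraries. Both reached 1 TPM only in the controls, and such rows had to be lower to enter the test. All 37 rows with order numbers 1 to 45, the part of the locus nearest to the J segments, were listed at 0 in both progenitor libraries. In the 3 controls that part gave 9.22%, 12.7% and 4.13% of the V sum. Its rows did not reach the filter of the test in the controls either, so none of them was tested. The tested rows were 4 with order numbers 46 to 90 and 11 from 91 upwards. The 10 rows at 1 TPM or more in both progenitor libraries had order numbers from 63 to 124, and 64 of the 103 rows were listed at 0 in both. The 10 highest rows made up 91.1% and 88.1% of the sum.

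Other light chain genes differed in the Pax5 comparison too. Of 7 lambda rows tested, 5 were higher in the progenitors; Iglv1, Iglv2 and Iglv3 summed to 3.46 and 2.98 TPM there and to 0.665, 1.92 and 1.27 TPM in the controls. Of the 23 activation genes 16 were lower, Pax5 itself and Irf4 (19.5 to 26.2 TPM against 102.0 to 139.0 TPM) among them, and 3 (Spi1, Pou2f2 and Brwd1) were higher. The 4 pre-B markers summed to 134.5 and 187.9 TPM in the progenitors and to between 913.7 and 1259 TPM in the controls; Cd2, Irf4 and Blnk were lower and Il2ra was higher (1.44 ± 0.21 on the log2 scale, adjusted p = 0.0018, limma). The 6 T cell markers summed to 208.5 and 214.0 TPM against 87.2 to 98.8 TPM, with Cd3e, which defines T cells, listed at 0 in both progenitor libraries. Of these markers Lck and Cd4 were higher, and Thy1 was lower (-1.44 ± 0.19, adjusted p = 0.0013, limma).

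**Figure D5:**
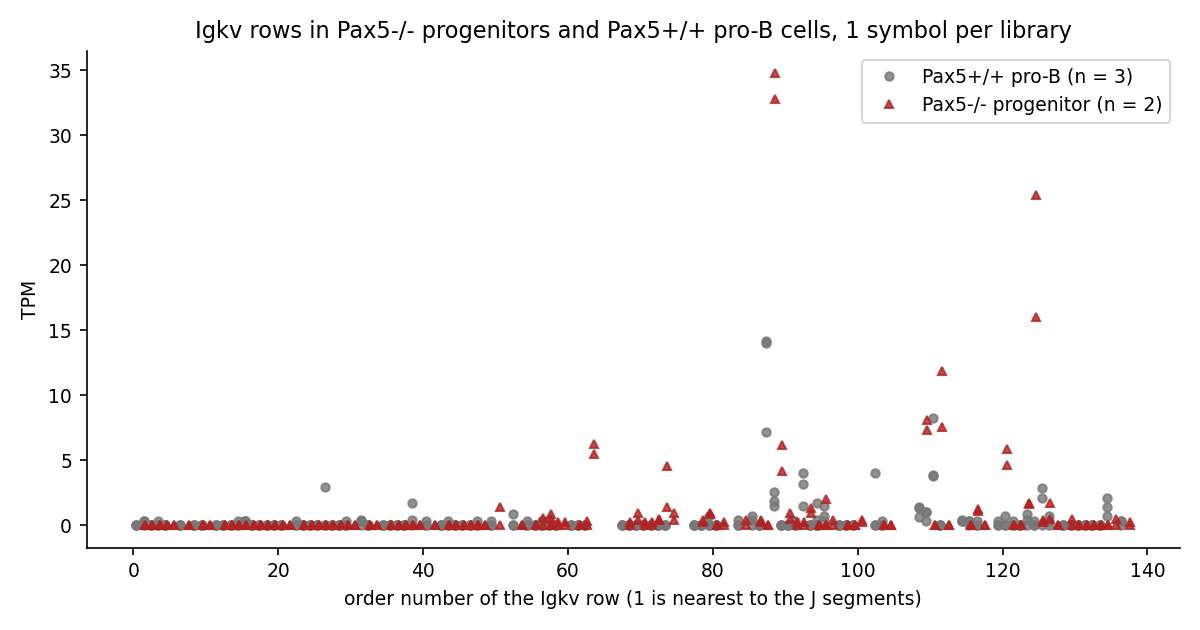
TPM of each Igkv row against order number in the 2 Pax5(-/-) progenitor and 3 Pax5(+/+) pro-B libraries, 1 symbol per library. Igkv1-88 and Igkv9-124 are the highest rows of the progenitors, and no row with an order number up to 45 is above 0 in them.

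The Eed experiment had low kappa levels and 1 control library that stood far above the rest. The V sum was 51.6 TPM in Eed(F/F) without Cre, 53.4, 215 and 39.8 TPM in Eed(F/+) Rag1-cre, and 8.38 to 27.8 TPM in the 5 Eed(F/F) Rag1-cre libraries, so the groups did not overlap. Of 8 rows tested, 1 was lower in Eed(F/F) Rag1-cre cells, where 21.8% of all genes tested passed. That row was Igkv14-111, at 3.63 TPM in Eed(F/F) without Cre and 9.12, 3.89 and 5.74 TPM in Eed(F/+) Rag1-cre, against 0.410 to 2.56 TPM with a median of 1.77 TPM. The fit, which had a term for the library series, gave -1.19 ± 0.35 (adjusted p = 0.0468, limma). The call was lost with a pseudocount of 0.1 (adjusted p = 0.0695, limma), with no filter (0.0665), with median-ratio scaling (0.0538) and with Rag1-cre controls only (0.0552). No Igkv14-111 call was made without the Eed(F/F) library that lacks Cre, without the third Eed(F/+) Rag1-cre library, or without any single Eed(F/F) Rag1-cre library, while 4 Igkv rows passed without the first Eed(F/+) Rag1-cre library.

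Igkc in the Eed experiment was 98.8 TPM without Cre and 174, 530 and 45.8 TPM in Eed(F/+) Rag1-cre, against 29.3 to 113.54 TPM, with overlap (difference -1.003, adjusted p = 0.087, limma). Of the 23 activation genes, 4 were higher and 13 lower in Eed(F/F) Rag1-cre cells. The immature and mature B markers summed to 735.8 to 1388 TPM there and to 303.0 to 411.7 TPM in controls, and the pro-B markers to 4782 to 5941 TPM against 6355 to 16000 TPM. The part of these differences in the Igkv levels was not tested.

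In immature B cells the heavy chain alleles went with few differences of kappa V transcripts. In the 890-inv experiment the V sum was 10993 and 12284 TPM in Igh(+/+) and 11173 and 11484 TPM in Igh(890-inv/+) libraries, and Igkc 27064 and 26913 TPM against 26869 and 27350 TPM. Of 99 rows tested, 1 was higher and 1 lower, where 0.544% of all genes tested passed. Igkv8-18 stood at 11.4 and 11.3 TPM against 20.1 and 19.2 TPM (difference 0.74 ± 0.10, adjusted p = 0.0415, limma), and Igkv1-99 at 114 and 59.2 TPM against 20.3 and 16.7 TPM (difference -2.10 ± 0.28, adjusted p = 0.0425, limma). The groups of both rows lay apart, and 0 rows passed when any single library was left out.

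For Igkv1-99, the Igh(+/+) libraries of that experiment were the high ones: the other 13 immature B libraries held between 8.69 and 18.9 TPM. Igkv14-126, which RefSeq lists as a pseudogene, stood at 724 and 2064.5 TPM in Igh(+/+) and at 1377 and 2023.5 TPM in Igh(890-inv/+) libraries, and at 284 to 714 TPM in the 13 other immature B libraries. Wapl was also unlike in that experiment, at 163 and 405 TPM in Igh(+/+) and 27.3 and 40.8 TPM in Igh(890-inv/+) libraries.

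The CBE and CBE-inv comparisons share the 3 Igh(+/+) libraries. Their V sums were 8594, 8438 and 7345 TPM in Igh(+/+), 9172 and 6970 TPM in Igh(CBE/+), and 8554 and 6062 TPM in Igh(CBE-inv/+), all overlapping. With limma, 0 of 99 rows passed in either comparison, where 0.00834% of all genes tested passed for CBE and 0.0834% for CBE-inv. At an unadjusted p under 0.05, 3 rows were higher and 0 lower for CBE, and 1 was higher and 7 lower for CBE-inv, where 2.45% and 2.49% of all genes tested lay under it.

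The V8-8 and V8-8-inv comparisons likewise share the 2 Igh(+/∆890) libraries. V sums were 6736 and 8978 TPM in Igh(+/∆890), 8212 and 8040 TPM in Igh(V8-8/∆890), and 8020 and 7150 TPM in Igh(V8-8-inv/∆890). With limma, 0 of 98 rows passed in either, where 0.235% of all genes tested passed for V8-8 and 0.219% for V8-8-inv. At an unadjusted p under 0.05, 14 rows were higher and 2 lower for V8-8, and 11 were higher and 10 lower for V8-8-inv, where 1.85% and 6.08% of all genes tested lay under it. Without the first Igh(+/∆890) library 4 rows passed for V8-8, and without the second 9 rows passed for V8-8-inv. The share of all genes that passed in those fits is not given. Igkc did not pass in any of the immature B comparisons, nor did any of the 23 activation genes.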

How the data were processed

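The 44 RNA libraries were sequenced mRNA of sorted or cultured mouse B lineage cells. The authors deposited 1 table of TPM per library; the submitters' processing notes name featureCounts 1.5.0 and the builds mm9 and mm10 with no role, and no source used here gives the build or the strand setting of the RNA tables. For 11 libraries the column has a bare number as header and was recorded as a signal of unstated scale in the deposited tables; these columns have the same total as the TPM columns and were used as TPM. Members and gene lists were chosen with earlier results of these data known.

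Per experiment, all groups entered 1 limma-trend fit (limma 3.58.1, R 4.3.3) on log2(TPM + 1) over genes that reached 1 TPM in as many libraries as the fit's smallest group holds. Fold changes on this scale understate those of low rows. P-values were adjusted by Benjamini-Hochberg over all genes tested (threshold 0.05); the Eed fit had a library series term. The script was tested on simulated data. Sums, counts of rows at 1 TPM and shares by order number (1 to 45, 46 to 90, 91 or more) got no test. The split by Igkv3 family was not planned. Named were, per comparison, up to 6 called rows a direction with the largest difference and a mean of 5 TPM or more in 1 group, the 10 rows highest in Wapl(+/+) pre-B and the 5 highest in Igh(+/+) immature B cells, Igkc, Igkj rows and the first and last rows by order; other rows were named after their values were seen. Sequences came from the NCBI37/mm9 genome with GENCODE vM1. Alternatives were a pseudocount of 0.1, no filter, median-ratio scaling, the groups of a comparison alone, and each library left out. The 60 files of other assays were not used.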

Additional observations from a re-analysis of the deposited data

Results flagged for a closer look

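In groups of 4 or 5 Eed libraries, 1 library stood far from the others in 4 of 12 groups and measures examined. Chance flags about 1 in 20 in a single look, but the measures are related, so the 12 looks are not independent. The controls also mix Eed(F/F) without Cre and Eed(F/+) Rag1-cre libraries. The 4 of 12 can therefore not be set against that rate. The second Eed(F/F) Rag1-cre library had 113.54 TPM of Igkc, where the nearest of the other 4 had 39.156 TPM. The same library drew 40.612% of its V sum from order numbers 1 to 45 (nearest 6.2689%) and 50.468% from its 10 highest rows (nearest 88.35%). The second Eed(F/+) Rag1-cre library had a V sum of 214.92 TPM, where the nearest control had 53.388 TPM. The difference between the stages in the effect of the ∆P1,2 genotype on Igkv19-93 was -1.35 on the log2 scale.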

How the results depend on the processing

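No paired analysis was possible because neither the labels nor the columns give the libraries of different groups shared replicate numbers. Where a value changed, the cause was not tested. With a pseudocount of 0.1, 18 rows passed in Wapl pro-B cells (11 higher, 7 lower), 1 in Wapl pre-B cells, 5 in the difference between stages, 0 in Eed and 1 in 890-inv. With no filter, 0 passed in the difference between stages, 21 in the cultures, 19 in Pax5 and 0 in 890-inv. More Igkv rows were then tested than the 19 of the cultures and the 15 of Pax5 with the filter. With median-ratio scaling, 5 passed in Wapl pre-B cells and 0 in Eed. With the 2 pre-B groups fitted alone 5 passed, and with Rag1-cre controls only 0 passed in Eed. The share of all genes called is given above only for the pseudocount in Wapl pro-B cells and median-ratio scaling in the cultures. Median-ratio scaling moved the median of all genes from -0.18 to 0.01 in the cultures and from -0.11 to -0.01 in Pax5, moved the summed difference in the cultures from -0.88 to -0.67, and turned the sign of the Igkc difference for CBE (-0.014) and V8-8 (-0.030).

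When single libraries were left out, a lone library being taken to vary like the other groups, the number of rows called ranged from 5 to 7 in Wapl pro-B cells, 0 to 3 in pre-B cells, 93 to 98 in the stage comparison, 0 to 2 in the difference between stages, 4 to 13 in the cultures, 6 to 11 in Pax5, 0 to 4 in Eed, 0 to 0 in 890-inv, 0 to 4 in V8-8 and 0 to 9 in V8-8-inv. The Igkc difference changed sign in comparisons where it was not called: it ranged from -0.075 to 0.276 in Wapl pre-B cells, -0.0064 to 0.0192 in 890-inv, -0.060 to 0.119 in CBE, -0.106 to 0.0208 in CBE-inv, -0.182 to 0.191 in V8-8 and -0.037 to 0.335 in V8-8-inv. Another alternative left out the row with the highest mean over all libraries of an experiment, pre-B libraries included. The summed difference was then -0.14 in Wapl pro-B cells (Igkv19-93 left out) and -1.10 in the cultures (Igkv14-111 left out). In the Wapl(+/+) pro-B libraries alone, Igkv1-88 and not Igkv19-93 was the highest row. Counted at 5 TPM, the number of rows differed by -0.167 in the cultures, 4.0 in 890-inv, 3.0 in CBE, 1.5 in V8-8 and -1.0 in V8-8-inv. The share of order numbers 1 to 30 differed by -2.85 percentage points in the cultures. The share of order numbers 46 to 90 differed by -9.96 percentage points from Wapl(+/+) pro-B to pre-B cells, and by 2.87 without Igkv1-88, an alternative chosen after seeing the data. Counts of rows called with a library left out stand without the share of all genes called in the same fit. The unknown depth limits what can be said of rows under 1 TPM.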
